A study of Arabidopsis thaliana with 36 samples.

Results

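psbA is the plastid gene for D1, the reaction centre protein of photosystem II that together with D2 holds the pigments and quinones of charge separation and is replaced continually in the light. It was taken as 1 of 128 plastid gene entries with coordinates of their own, together with 400 bp on each side. In the plastid coordinates of the coverage table, read against the TAIR10.1 gene table, psbA (ArthCp002) runs from position 383 to 1444 and is 1062 bp long. It is read from the reverse strand, so its promoter lies at the higher positions. The gene start is taken below as the edge of this entry at position 1444. The start and end of transcription were not mapped, so transcribed sequence outside the entry may lie in the flanks. The window holds trnH (ArthCt088, positions 4 to 76), the gene of a histidine tRNA, behind the 3′ end of psbA. On the promoter side it reaches into trnK (ArthCt089, positions 1717 to 4347), a lysine tRNA gene whose intron carries matK.

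Plastid genes of land plants are transcribed by a polymerase encoded in the plastid (PEP) and by polymerases encoded in the nucleus. PEP has a bacterial type of core, of which RpoB is the beta subunit, and needs nuclear-encoded sigma factors to start at a promoter. psbA is a standard example of a gene with a PEP promoter and is among the most strongly transcribed genes of the chloroplast. The nucleus also encodes pTAC3 and pTAC14, which copurify with PEP in the transcriptionally active fraction of plastid chromatin.

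Chromatin immunoprecipitation with sequencing (ChIP-seq) was done on chloroplast-enriched material from Arabidopsis thaliana seedlings 5 days old, with 50 seedlings harvested. All plants had 48 h of dark stratification, grew on 0.5-strength MS medium in continuous light of 100 µmol per m2 and s, received no other treatment, and were crosslinked in 4% formaldehyde for 4 h. The 36 libraries form 12 groups of 3. The ptac3 set pairs RpoB ChIP of Col-0, the wild type, with that of the ptac3 mutant. The ptac14 set pairs RpoB ChIP of further Col-0 plants with that of the ptac14 mutant. The pTAC3 set pairs pTAC3 ChIP of Col-0 with that of ptac3, which lacks the antigen as far as the mutation removes it. Each ChIP group has its own input group, sequenced without immunoprecipitation. The labels name the mutant lines without their alleles, and a genotype tag that read wild type for all samples was not used. They do not say that replicates came from separate plates, so p-values measure the spread between these libraries, which may be technical. The design asks whether each protein sits on the gene and whether RpoB still does so without pTAC3 or pTAC14.

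Mean coverage over psbA ran from 272 to 3772 reads per position in Col-0 ChIP libraries, from 69.8 to 229 in mutant ChIP libraries and from 315 to 951 in inputs. Coverage over psbA rises with enrichment itself. Over the whole plastid genome the mean was 113 to 1538 in Col-0 ChIP libraries and 59.2 to 204 in mutant ChIP libraries, which overlapped through Col-0 replicate 1 of the ptac14 set. The part of depth in the results was not tested. At a single position of the gene, counting error was 1.6% to 12% of the coverage. No molecular identifiers were used, so reads may repeat a molecule and the true error can be larger.

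The share of a library's coverage that fell on psbA shows the pattern before any ratio is taken. psbA makes up 0.687% of the positions. In inputs it held between 0.662% and 0.773% of the coverage. In Col-0 RpoB ChIP it held 1.69%, 1.39% and 1.502% in replicates 1, 2 and 3 of the ptac3 set. The Col-0 RpoB libraries of the ptac14 set had 1.65%, 1.99% and 1.81%. Col-0 pTAC3 ChIP had 1.52%, 1.91% and 1.86%. Every Col-0 ChIP library was above every input. The ptac3 mutant had 0.714%, 0.831% and 0.772% with the RpoB antibody and 0.629%, 0.882% and 0.722% with the pTAC3 antibody. The ptac14 mutant had 0.694%, 0.711% and 0.920%. All 9 of these were below all 9 Col-0 ChIP libraries, and they spread around the range of the inputs.

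Enrichment is given from here on as log2(ChIP/input), computed base by base after each library was scaled to its mean coverage and averaged over the stretch named. For bins of 50 bp, coverage was averaged over the bin before the ratio was taken. Over the psbA gene body RpoB enrichment was 1.21, 0.82 and 0.93 in the Col-0 replicates 1 to 3 of the ptac3 set. The Col-0 libraries of the ptac14 set gave 1.11, 1.43 and 1.29. pTAC3 enrichment in Col-0 was 1.10, 1.39 and 1.41. The means were 0.99 ± 0.20, 1.27 ± 0.16 and 1.30 ± 0.17 (SD, n = 3 each), which corresponds to 1.98, 2.42 and 2.46 times input. All 9 values lay above 0. psbA passed the threshold for enrichment over input in each set (limma, adjusted p = 7.59e-14, 3.54e-07 and 6.41e-25 over 128 genes), as did 36.7%, 35.2% and 37.5% of all genes.

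In the mutants the gene body stood at the level of its input. RpoB enrichment in ptac3 was -0.09, 0.16 and -0.01, and in ptac14 it was -0.09, -0.09 and 0.28. pTAC3 ChIP in ptac3, the background of that antibody, gave -0.25, 0.28 and -0.05. In none of the 3 sets did the mutant libraries overlap with those of Col-0, and each mutant group had values on both sides of 0. The means were 0.02 ± 0.13, 0.03 ± 0.21 and -0.005 ± 0.268 (SD, n = 3 each). Against input they did not pass the limma threshold (adjusted p = 0.989, 0.978 and 0.993, where 0.781%, 0% and 2.34% of genes passed in either direction). Their limma 95% confidence intervals were -0.23 to 0.27, -0.27 to 0.34 and -0.24 to 0.23. In the ptac3 and pTAC3 sets these rest on a spread shared by all genes. The lowest and highest values of pTAC3 ChIP in ptac3, -0.25 and 0.28, lay outside their interval. A remaining enrichment within these bounds was not detectable in these libraries, and the bounds may be too narrow for psbA itself. Each library is a bulk of many cells, and fewer cells with bound protein cannot be told apart from less protein bound per cell.

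**Figure D1:**
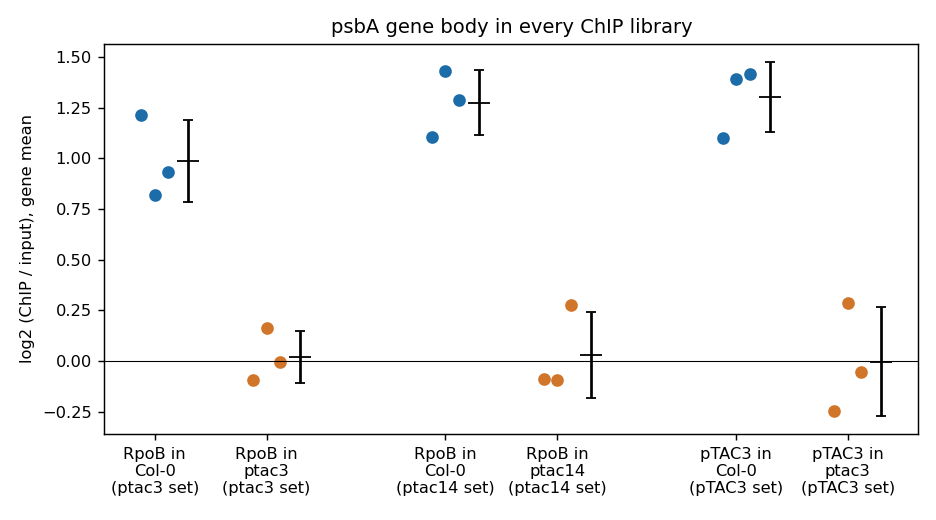
log2(ChIP/input) averaged over the psbA gene body in each of the 18 ChIP libraries (points; blue Col-0, orange mutant), with the mean and SD of each group of 3 beside them. Col-0 libraries sit between 0.82 and 1.43 and mutant libraries between -0.25 and 0.28, on either side of a gap.

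RpoB at psbA changed by -0.97 in ptac3 (SE 0.18, 95% interval -1.32 to -0.61, limma adjusted p = 2.16e-07) and by -1.24 in ptac14 (SE 0.20, interval -1.67 to -0.81, adjusted p = 3.40e-05). The pTAC3 signal changed by -1.31 in ptac3 (SE 0.17, interval -1.63 to -0.98, adjusted p = 1.07e-13). The ratio to input in the mutants was thus 0.512, 0.422 and 0.404 times that in Col-0. The mutant ratios themselves were 1.01, 1.02 and 0.997, so these factors are not a share of signal above input that remained. Of all genes 30.5%, 27.3% and 36.7% were called lower in these sets and 51.6%, 55.5% and 52.3% higher. An exact permutation test of psbA alone gave p = 0.1 in each set, the smallest that 3 libraries against 3 allow. limma gave every gene of the ptac3 set and of the pTAC3 set the same spread, so those adjusted p-values rest on a spread shared by all genes. With any 1 library left out, the highest adjusted p was 7.85e-05, 0.000701 and 0.000544.

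The size of the fall depends on what the libraries are scaled to, because a library that gains coverage in bound regions must lose it elsewhere. Scaled to the median 50 bp bin, psbA changed by -1.91 (ptac3 set), -2.65 (ptac14 set) and -2.29 (pTAC3 set). Scaled to the rpoB, rpoC1 and rpoC2 genes it changed by -2.31, -3.36 and -2.97. These alternatives also moved the median change of the 113 genes left when 1 copy of the inverted repeat is counted. That median was 0.65, 0.96 and 0.67 with totals, -0.30, -0.45 and -0.31 with the median bin and -0.70, -1.16 and -0.99 with the rpo genes. A scaling adds the same amount to every gene of a library, so the change of psbA relative to that median is fixed by construction, at -1.61, -2.20 and -1.97.

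The input of psbA differed little between the genotypes. Scaled input coverage over the gene was higher in the mutant by 0.04, 0.08 and 0.11 (log2), in the order of sets above, and none of these passed the limma threshold (adjusted p = 0.657, 0.161 and 0.134). Of all genes 0%, 10.2% and 0.781% changed in their inputs.

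Within the window the protein was not spread evenly. Both RpoB and pTAC3 formed a steep rise in front of the gene and a summit at the gene start, which is the edge of the gene entry and not a mapped transcription start. From there the signal declined along the coding region, apart from a local rise inside the gene. After a running mean of 51 bp, the RpoB summit of the ptac3 set lay, for Col-0, at -8, 47 and 56 bp upstream of the gene start in replicates 1 to 3, where a negative value lies inside the gene. In the ptac14 set it lay at -64, -10 and 18 bp, and for pTAC3 at 42, 58 and -17 bp. All 9 summits fell between -64 and 58 bp. Their height ran from 1.62 to 2.27, with a median of 1.99. The stretch within 1 log2 unit of the summit began between 146 and 250 bp upstream (median 168 bp) and ended between 318 and 949 bp inside the gene (median 644 bp). The edge on the promoter side thus varied less between libraries than the edge inside the gene.

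RpoB and pTAC3 summits could not be separated. The mean summit lay 6.5 bp upstream for RpoB (n = 6) and 27.7 bp upstream for pTAC3 (n = 3), and an exact two-sided permutation test gave p = 0.548. With totals, summit height was 1.94 for RpoB and 2.03 for pTAC3 (exact permutation p = 0.536). The length of the stretch within 1 log2 unit of the summit was 809 and 857 bp (exact permutation p = 0.750).

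**Figure D2:**
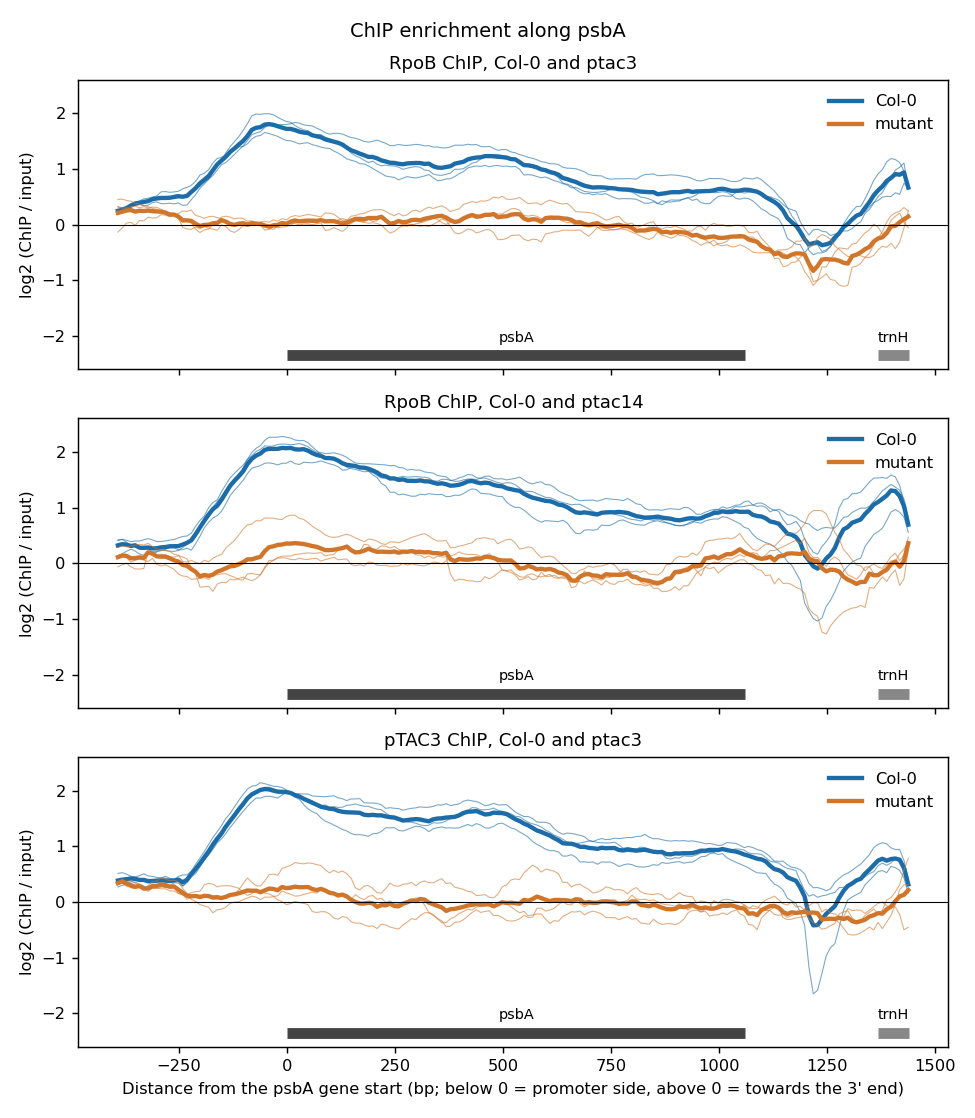
log2(ChIP/input) along the psbA window in steps of 10 bp, against the distance from the gene start in bp (promoter side left, 3′ side right). Thin lines are the 3 replicates, thick lines their mean, blue Col-0 and orange mutant, and bars mark psbA and trnH. Col-0 lines rise steeply within 250 bp in front of the gene to a summit at its start. They then decline, with a local rise inside the gene, while mutant means stay near 0 up to the 3′ end of the gene.

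In bins of 50 bp the same course can be followed step by step. In Col-0 the mean RpoB enrichment of the ptac3 set was 0.48 in the bin from 1701 to 1750, 0.90 from 1601 to 1650, 1.30 from 1551 to 1600 and 1.66 from 1501 to 1550. It was highest from 1451 to 1500, just in front of the gene start, at 1.78. In the ptac14 set the bins from 1401 to 1450 and from 1451 to 1500 shared the highest value of 2.05. pTAC3 was highest from 1451 to 1500, at 2.0. The same bins had -0.01 and 0.23 in ptac3 for RpoB and pTAC3, and 0.35 and 0.30 in ptac14.

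Of the bins of the window that passed the filter on input, 31 of 36, 30 of 36 and 35 of 37 were above input in Col-0, by set, against 20.8%, 20.2% and 22.9% of the bins of the whole plastid genome. Neighbouring bins share reads, so these counts are lengths along the window and not independent observations. In the mutants 31, 29 and 31 of these bins were lower than in Col-0 and 0 were higher (limma), where 19.1%, 17.5% and 21.2% of all bins were lower and 66.8%, 69.4% and 66.6% higher. The called stretch reached from the gene up to the bin from 1651 to 1700 in the ptac3 set and up to the bin from 1601 to 1650 in the ptac14 and pTAC3 sets. The 3 bins from 1701 to 1850, which lie over the end of trnK, differed between mutant and Col-0 in none of the sets, with mutant values between 0.10 and 0.33. These extents hold for scaling to totals: with the median bin or the rpo genes, every tested bin of the window, these 3 among them, was called lower in the mutant, over 1800, 1800 and 1850 bp. Against input, 4 bins of the window were called in ptac3 (RpoB), all in the spacer behind the gene and all below input. In ptac14 and in the pTAC3 set 0 were (limma, with 0 and 4 at an unadjusted p under 0.05), beside 1.36%, 0% and 0.389% of all bins.

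The signal also covered the 200 bp in front of the gene. There RpoB enrichment in the ptac3 set was 1.38, 1.38 and 1.55 for Col-0 and -0.04, 0.06 and 0.02 in ptac3. In the ptac14 set it was 1.37, 1.67 and 1.68 in Col-0 and -0.22, -0.15 and 0.50 in ptac14. pTAC3 gave 1.59, 1.73 and 1.502 in Col-0 and 0.20, 0.28 and 0.01 in ptac3. No mutant library overlapped with Col-0, and replicate 3 of ptac14 stood apart from the rest of its group. The stretch changed by -1.42, -1.53 and -1.44 (limma adjusted p = 2.97e-07, 5.65e-05 and 6.99e-06), where 33.6%, 27.7% and 34% of the flanks of all genes were lower. Those percentages count 200 bp on both sides of each of the 128 genes, 256 flanks in all, since the gene table gives no strand. Taken over 400 bp in front of the gene, the change was -0.84, -0.90 and -0.80, because the outer 200 bp carried little signal. In those outer 200 bp Col-0 had 0.44 ± 0.07, 0.33 ± 0.11 and 0.41 ± 0.07 and the mutants 0.18 ± 0.07, 0.06 ± 0.14 and 0.25 ± 0.04 (SD, n = 3), with no overlap and an exact permutation p of 0.1 in every set.

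Cut into 4 parts of equal length, the gene showed a steady decline of the signal in Col-0. RpoB in the ptac3 set had means of 1.40, 1.13, 0.82 and 0.60 from the 5′ to the 3′ end. In the ptac14 set they were 1.80, 1.43, 1.02 and 0.85, and for pTAC3 1.67, 1.54, 1.10 and 0.90. The corresponding means in the mutants were 0.07, 0.12, 0.05 and -0.17 (ptac3 set), 0.26, 0.12, -0.17 and -0.08 (ptac14 set) and 0.09, -0.04, 0.01 and -0.08 (pTAC3 set). Every part of every Col-0 library was above the same part of every mutant library of its set. RpoB lost most in the first part, where it changed by -1.33 in ptac3 and by -1.54 in ptac14. For pTAC3 the first and the next part changed nearly alike, by -1.57 and -1.58. The last part changed by -0.76, -0.93 and -0.99 in the order of sets.

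**Figure D3:**
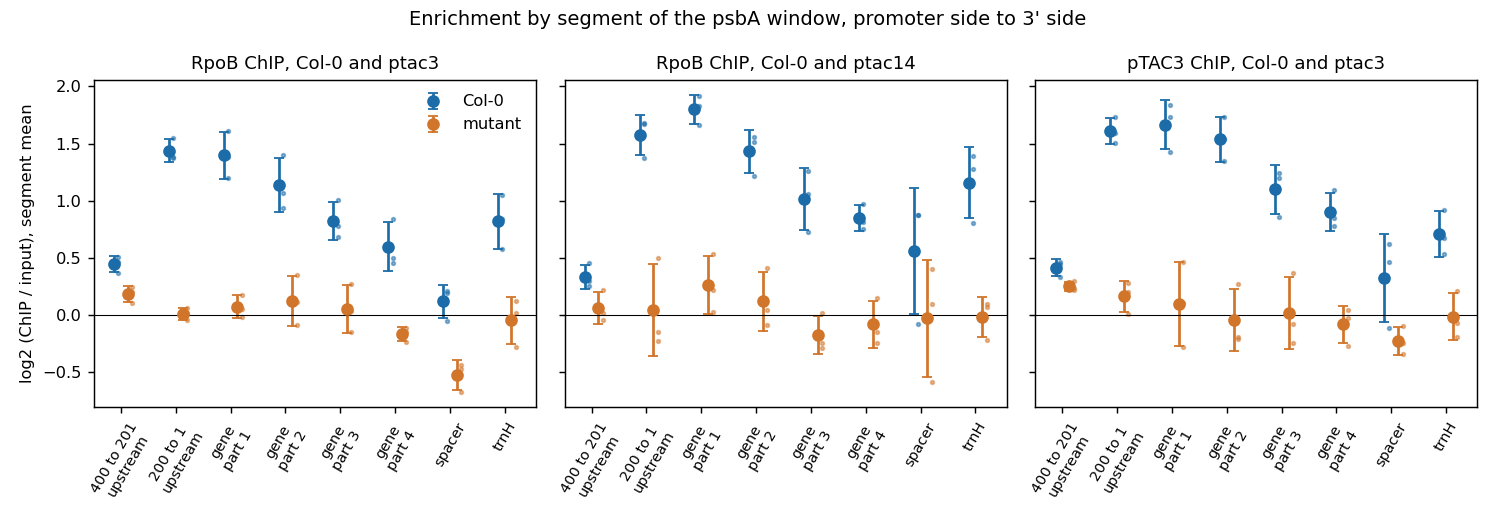
Mean log2(ChIP/input) of each segment of the psbA window, from the promoter side to trnH, by set (large points with SD bars, n = 3; small points single libraries; blue Col-0, orange mutant). Col-0 is highest in the 200 bp in front of the gene and in the first of 4 equal parts of the gene, and mutant means stay between -0.53 and 0.26.

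The slope was tested as the 5′ part minus the 3′ part of the gene, cut at its midpoint, over the 57 genes of at least 500 bp. In Col-0 psbA had 0.58, 0.50 and 0.59 (ptac3 set), 0.67, 0.62 and 0.76 (ptac14 set) and 0.57, 0.49 and 0.75 (pTAC3 set). All 9 libraries leaned to the 5′ side. The means of 0.56, 0.68 and 0.60 passed the limma threshold (adjusted p = 1.70e-05, 3.97e-07 and 2.66e-06), as did 33.3%, 43.9% and 28.1% of the genes in either direction. By size psbA ranked 3, 2 and 3 among the 57, whose median size was 0.11, 0.13 and 0.13. The gene table gives no strand, so the parts of the other genes were taken by position and their sizes only were compared.

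In the mutants that lean was smaller. RpoB had 0.08, 0.20 and 0.18 in ptac3 and 0.32, 0.25 and 0.39 in ptac14. The pTAC3 antibody gave 0.02, 0.16 and -0.0049 in ptac3. None of these overlapped with the Col-0 libraries of the set. The change was -0.40, -0.36 and -0.54 (limma adjusted p = 0.00543, 0.00326 and 0.000461, with 15.8%, 21.1% and 17.5% of genes called in either direction). It does not move with the scaling, which shifts both parts alike. RpoB in ptac14 still leaned to the 5′ side, by 0.32 (adjusted p = 0.00458, with 3.51% of genes called), and all 3 of its libraries were positive. The lean of 0.15 in ptac3 (adjusted p = 0.149, 3.51% of genes called) and of 0.06 for the pTAC3 antibody in ptac3 (adjusted p = 0.823, 1.75% of genes called) did not pass. RpoB in ptac14 and in ptac3 differed in this measure by 0.17 (95% interval 0.004 to 0.33), with an adjusted p of 0.434 over the genes (limma), and 0 of 57 genes passed. The change from Col-0 differed between ptac14 and ptac3 by 0.04 (interval -0.19 to 0.27, adjusted p = 0.994).

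Behind the gene the signal dropped and came back at trnH. The spacer between psbA and trnH, positions 77 to 382, gave RpoB values of 0.21, 0.19 and -0.05 for Col-0 against -0.47, -0.68 and -0.43 for ptac3. The ptac14 set gave 0.88, 0.87 and -0.08 for Col-0 against -0.59, 0.09 and 0.41 for ptac14. pTAC3 gave 0.46, 0.62 and -0.11 for Col-0 against -0.24, -0.34 and -0.10 for ptac3. The groups overlapped in the ptac14 and pTAC3 sets (exact permutation p = 0.3 and 0.2) and did not in the ptac3 set (exact permutation p = 0.1). Input coverage there was low: the median over the 18 inputs was 0.303 of the library mean in the bin that ends at position 250 and 0.107 in the first 50 bp of the table, against 0.928 at the 3′ end of psbA from 401 to 450. The lowest Col-0 bin of each set was that same bin, at -0.32, 0.02 and -0.22. At trnH the Col-0 libraries had 1.05, 0.57 and 0.84 (RpoB, ptac3 set), 1.39, 1.28 and 0.80 (RpoB, ptac14 set) and 0.67, 0.92 and 0.53 (pTAC3). Its mutant means were -0.05, -0.02 and -0.02, and its changes of -0.87, -1.18 and -0.73 passed the limma threshold (adjusted p = 2.83e-06, 8.21e-05 and 2.38e-05). Most of trnH lies in the first 50 bp, a bin that the input filter removed in the ptac3 and ptac14 sets. The gene test applied no such filter. trnK on the other side changed by -0.28, -0.20 and -0.38 (adjusted p = 0.125, 0.339 and 0.0260), and its intron gene matK by -0.22, -0.13 and -0.31 (adjusted p = 0.241, 0.521 and 0.0728).

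With totals, the levels of psbA by group, from the highest, were pTAC3 in Col-0, Col-0 RpoB in the ptac14 set, Col-0 RpoB in the ptac3 set, and then the 3 mutant groups within 0.04 of each other. pTAC3 exceeded the mean of both RpoB groups in Col-0 by 0.17 (95% interval -0.13 to 0.47, limma adjusted p = 0.692, 0% of genes called). Against the ptac3 set alone the difference was 0.31 (-0.03 to 0.66) and against the ptac14 set alone it was 0.03 (-0.32 to 0.37). The order of pTAC3 and RpoB turned with the scaling: against both RpoB groups the difference was -0.0401 with the median bin, and against the ptac14 set alone it was -0.43 with the median bin and -0.50 with the rpo genes, none of which passed the threshold. The lean to the 5′ side differed between pTAC3 and RpoB by -0.02 (-0.16 to 0.12, adjusted p = 0.887, 0% of genes called). The RpoB groups of Col-0 differed by 0.29 (-0.06 to 0.63, adjusted p = 0.180, 10.9% of genes called), and by 1.09 with an adjusted p of 0.0297 when libraries were scaled to the rpo genes. The fall of RpoB in ptac14 was larger than that in ptac3 by 0.28 (interval of the difference -0.77 to 0.21, adjusted p = 0.387, 0% of genes called). Mutant levels of RpoB differed by 0.01 between ptac14 and ptac3 (-0.34 to 0.36, adjusted p = 0.987). ptac3 and ptac14, and RpoB and pTAC3, were measured in libraries of different sets, so these differences cannot be told apart from differences between sets.

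Among the 79 protein-coding genes psbA had the highest gene body enrichment in 9 of 9 Col-0 ChIP libraries. The gene next to it was matK, psbI or rbcL, with values between 0.17 and 0.56. Among 113 genes of all classes psbA ranked between 20 and 25. In the mutants its rank among protein-coding genes ran from 2 to 77. rbcL encodes the large subunit of Rubisco, and psbA exceeded it by 0.86 ± 0.23 over the 9 Col-0 libraries (SD, n = 9, range 0.51 to 1.13). psbD encodes D2, the partner of D1 in the reaction centre, and psbA exceeded it by 1.52 ± 0.30. trnE, a glutamate tRNA gene, exceeded psbA, whose difference to it was -1.25 ± 0.18. Each difference had the same sign in 9 of 9 libraries (exact sign-flip permutation p = 0.00391, the smallest that 9 libraries allow, and 0.00391 after adjustment over the 3 genes). Within the sets, in the order used above, the mean difference to rbcL was 0.67, 1.04 and 0.88, that to psbD 1.30, 1.78 and 1.48, and that to trnE -1.17, -1.46 and -1.11. The sign-flip test treats the 9 libraries as independent, though they come in 3 sets, so its p-value can overstate the replication. Gene lengths differ, and a short gene is averaged over fewer bases.

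**Figure D4:**
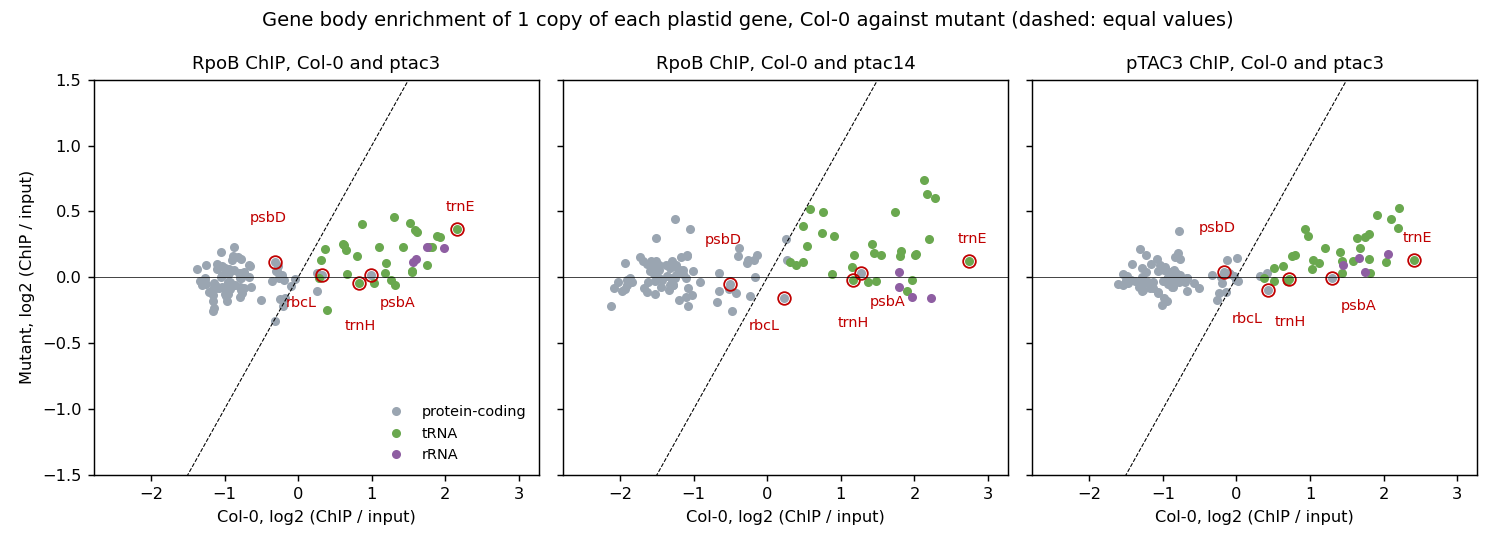
Mean log2(ChIP/input) of the gene body in Col-0 (x) and in the mutant (y) for the 113 plastid genes with 1 copy of the repeat counted, by set (grey protein-coding, green tRNA, purple rRNA). psbA, at 0.99, 1.27 and 1.30 on the x axis, lies to the right of all other protein-coding genes, among the tRNA genes.

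The genes most like psbA over the 18 ChIP libraries were tRNA genes. By root mean square difference of gene body enrichment the nearest were trnL (ArthCt101) at 0.194, trnI (ArthCt113) at 0.195, trnV (ArthCt103) at 0.208, trnG (ArthCt092) at 0.217 and trnV (Arthct121) at 0.222. Their Pearson correlations with psbA over these libraries lay between 0.952 and 0.979, a description only, since the libraries fall into a Col-0 and a mutant cluster. The nearest protein-coding genes were rbcL at 0.641, psbI at 0.667 and matK at 0.678.

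No other photosystem II gene on the list reached the level of psbA in Col-0. The nearest was psbI, for a small subunit, at 0.25, 0.25 and 0.41. Of the 15 plastid genes listed for photosystem II and its assembly, 1, 1 and 2 were above input in Col-0 by set with totals, namely psbA in each and psbI for pTAC3, where 32.7%, 30.97% and 33.6% of the 113 genes were. That count rests on the scaling: it was 11, 13 and 10 with the median bin (55.8%, 62.8% and 55.8% of the 113 genes) and 14, 15 and 15 with the rpo genes (89.4%, 92.0% and 93.8%). psbB, for the CP47 antenna protein, had -0.67, -1.08 and -0.78 in Col-0 with totals, and psbC, for CP43, had -0.35, -0.48 and -0.24. The median of the list in Col-0 was -0.35, -0.66 and -0.26, against -0.67, -1.05 and -0.68 over 113 genes.

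In the mutants 1, 1 and 2 of the 15 were lower with totals, again psbA and, for pTAC3, psbI, and 8, 10 and 7 were higher. Over the 113 genes 27.4%, 23.9% and 32.7% were lower and 54.0%, 58.4% and 54.9% higher. The median change of the list was 0.43, 0.61 and 0.21, against 0.65, 0.96 and 0.67. With the median bin 8, 10 and 9 of the 15 were lower and 0 higher, where 47.8%, 51.3% and 50.4% of the 113 genes were lower and 7.08%, 13.3% and 12.4% higher. With the rpo genes 12, 15 and 15 were lower and 0 higher, where 75.2%, 86.7% and 90.3% of the 113 genes were lower. psbA was lower under all 3 scalings in each set.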

How the data were processed

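The authors deposited 1 table of whole-number coverage (a signal track, unit entered as other) with 154477 plastid positions and 36 libraries. It was not scaled to library size. Per the submitters' processing notes, Trim Galore 0.4.1, Bowtie2 and bedtools 2.25.0 were used with build TAIR10. Filters, duplicate removal and the treatment of repeat reads are not given in the sources used here. Gene positions came from a RefSeq table for TAIR10.1. That table has no strand, and promoter sequence was not analysed here.

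Each library was scaled to its mean coverage. Per base, log2((ChIP + pseudocount)/(input + pseudocount)) was taken with a pseudocount of 5% of the library mean and the input of the same group and replicate number, then averaged over genes, parts of genes or flanks. For 50 bp bins, coverage was averaged over the bin first and the same ratio was taken of the bin means. Values understate large ratios at low coverage. Bins whose scaled input was below 10% of the median bin were dropped. limma 3.58.1 in R 4.3.3 (lmFit, eBayes, two-sided) was fitted per set over all genes or bins, with Benjamini-Hochberg adjustment and a threshold of 0.05. Cross-set differences came from a fit of all groups. Intervals are 95%. Scripts were tested on simulated data. Exact permutation and sign-flip tests ran over every arrangement of the libraries, with numpy 2.4.6.

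Alternatives were the scaling, the pseudocount, the input, the bin width, the low-input filter, the flank length, 1 fit for all groups, a replicate block and each library left out. Deviations of same-numbered Col-0 and mutant ChIP libraries correlated over genes at 0.46, 0.28 and 0.70 in the ptac14 set. They correlated at -0.39, -0.20 and 0.02 in the ptac3 set and at 0.39, -0.25 and -0.06 in the pTAC3 set. The labels do not say what the numbers mark. The main fits did not pair Col-0 with mutant libraries in any set, and only the replicate block did. Genes named beside psbA were its neighbours, a photosystem II list, rbcL, psbD and trnE, and the 5 genes and 3 protein-coding genes nearest to it by root mean square difference. The gene and these lists were chosen with earlier results of these data known. Values for psbC and psbB were picked from the list as examples.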

Additional observations from a re-analysis of the deposited data

How the results depend on the processing

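Over 723 alternatives of 47 results, 705 were classed as the same. For tested results this means the same direction and the same side of the threshold. For summit positions it means a shift smaller than the SD of the replicates. Extents in bins are lengths without a p-value of their own. The falls at psbA, in its gene body, in front of it and in its lean to the 5′ side, passed the threshold in every alternative run. The replicate block, paired by number, left the gene body changes at -0.97, -1.24 and -1.31 and gave an adjusted p (limma) of 0.00283, 3.99e-11 and 1.21e-14 for them by set, and it changed no call. With the median bin or the rpo genes, every tested bin of the window was lower in the mutants.

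Results near 0 changed sign. With the median bin, pTAC3 ChIP in ptac3 went to 0.0131, pTAC3 minus RpoB in Col-0 to -0.0401, and the same against the ptac14 set alone to -0.43 (-0.50 with the rpo genes). The difference of the Col-0 RpoB groups passed only with the rpo genes, at 1.09. With 1 library left out, the mutant gene bodies ran from -0.0498 to 0.0769, from -0.0913 to 0.0929 and from -0.15 to 0.12 in the ptac3, ptac14 and pTAC3 sets. RpoB in ptac14 minus ptac3 ran from -0.11 to 0.0809, and pTAC3 minus RpoB against the ptac14 set alone from -0.0567 to 0.13. The lean of pTAC3 minus RpoB ran from -0.0907 to 0.0382, and against the ptac3 set alone from -0.0286 to 0.10. The cause was not tested. The shallowest library, a pTAC3 ChIP of ptac3, had a mean coverage of 59.2.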

Other observations

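A local rise stood inside the psbA gene, about 400 to 500 bp from its start, and was noticed after the values were seen. In Col-0 of the ptac3 set RpoB enrichment was 1.04 in the bin from 1051 to 1100, 1.16 from 1001 to 1050 and 1.22 from 951 to 1000, then 0.92 from 801 to 850. pTAC3 had 1.51, 1.61, 1.59 and 1.15 in these bins. RpoB in Col-0 of the ptac14 set had 1.41, 1.45, 1.42 and 1.08, where the rise was within 0.04. The rise itself was not tested.

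Single mutant libraries differed in where they were highest along the window. Replicate 3 of ptac14 reached 0.92 in the spacer behind the gene, and replicate 2 of ptac3 in the pTAC3 set reached 0.70 close to the gene start, 37 bp inside it. The highest points of the other mutant libraries were between 0.25 and 0.48.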
